A study of Caenorhabditis elegans with 2 samples.

Results

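Transcription factors are often mapped at promoters, the stretches of DNA next to the start sites of genes. The regions described here are the ZTF-4 peaks on chromosomes I to V of *Caenorhabditis elegans* whose summit, the position of highest signal in a peak, lay within 500 bp of annotated start sites of exactly 1 protein-coding gene. Of the 1794 peaks that passed the authors' IDR threshold (irreproducible discovery rate, which scores how alike the replicates rank a region), 550 (30.7%) met this rule, out of 1451 peaks on these 5 chromosomes. They lay at 522 genes. Chromatin immunoprecipitation followed by sequencing (ChIP-seq) had been run on whole L2 larvae of mixed sex from the strain OP322, in 2 biological replicates of 1 group. The strain carries the mutation unc-119(ed3) on chromosome III and the insertion wgIs322, from which ZTF-4 is made as a fusion with enhanced green fluorescent protein. No other genotype, treatment or time was compared, and whether the endogenous ztf-4 gene was intact, and in which cells the fusion was made, was not stated in the labels or files. The chromatin came from all cells of the animals together, so a strong peak in few cells and a weak peak in many cannot be told apart.

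ZTF-4 belongs to the zinc finger proteins, many of which bind DNA. In the compact genome of *C. elegans*, promoters lie mostly in the short stretches between genes, and neighbouring genes that point away from each other can share one. Many transcripts of this species are joined to a spliced leader, so an annotated start site can be a splice site that lies downstream of the site where transcription begins. A peak near the start sites of a single gene can be assigned to that gene by position with less doubt than a peak between a pair of genes, but position alone does not show that the gene is regulated by the factor.

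The sequences around the summits are shown first, for the 7 peaks of highest signal and for 3 others that the results below refer to. Each is 101 bases long, centred on the summit and written 5′ to 3′ on the strand of the gene. They were read from the RefSeq genome of the same build as the peaks (ce11, WBcel235). Capitals mark any of 4 words of 6 bases on either strand, namely GCGCAC and its reverse complement GTGCGC, then GACGCA with its complement TGCGTC, then the repeat GAGAGA, which reads TCTCTC on the other strand, and finally AGTGTA with its complement TACACT. The first 3 come from the word comparison below or from the repeat it includes, and the last was picked after the sequences of the highest peaks had been seen.
rpl-3, III:3867521-3867621, plus strand, highest signal: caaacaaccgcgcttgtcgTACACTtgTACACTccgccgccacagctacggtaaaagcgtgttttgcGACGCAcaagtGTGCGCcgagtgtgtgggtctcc
cdc-48.1, II:10563534-10563634, minus strand: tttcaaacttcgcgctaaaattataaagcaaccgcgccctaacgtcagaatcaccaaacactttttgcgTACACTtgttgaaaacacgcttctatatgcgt
ufbp-1, III:8443775-8443875, minus strand: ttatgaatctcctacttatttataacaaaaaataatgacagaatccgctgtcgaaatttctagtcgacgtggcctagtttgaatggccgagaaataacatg
tasp-1, III:10759207-10759307, plus strand: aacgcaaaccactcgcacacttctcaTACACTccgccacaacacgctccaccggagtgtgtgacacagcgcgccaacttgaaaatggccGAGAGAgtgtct
rpl-35, III:7854649-7854749, plus strand: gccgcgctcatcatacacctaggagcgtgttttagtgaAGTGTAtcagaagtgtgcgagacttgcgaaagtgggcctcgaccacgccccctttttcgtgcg
rps-1, III:4475628-4475728, plus strand: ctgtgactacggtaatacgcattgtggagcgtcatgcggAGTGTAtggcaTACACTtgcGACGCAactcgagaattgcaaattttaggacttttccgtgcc
cox-5A, III:12905158-12905258, plus strand: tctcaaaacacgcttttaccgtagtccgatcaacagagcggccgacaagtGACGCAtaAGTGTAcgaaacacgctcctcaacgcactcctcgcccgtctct
eelo-2, IV:17249843-17249943, plus strand: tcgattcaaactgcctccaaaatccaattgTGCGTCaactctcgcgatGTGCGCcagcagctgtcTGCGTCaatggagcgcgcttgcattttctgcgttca
lgg-2, IV:10936155-10936255, minus strand: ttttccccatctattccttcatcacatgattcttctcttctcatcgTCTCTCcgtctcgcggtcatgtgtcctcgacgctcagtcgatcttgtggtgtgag
Y73C8B.2, V:3195034-3195134, minus strand, lowest signal: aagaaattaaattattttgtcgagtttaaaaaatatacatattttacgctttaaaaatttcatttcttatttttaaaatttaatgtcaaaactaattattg

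The highest peak of all lay 283 bp upstream of a start site of rpl-3, whose product belongs to the large ribosomal subunit. It covered III:3867426-3867711, outside annotated protein-coding genes, ahead of the gene at III:3867854-3869587. Its signal value, which is the authors' own score for a region, was 843 in the list made from both replicates pooled, 401 in replicate 1 and 459 in replicate 2, and it ranked 1 in each replicate. The scale of this value is not stated by the authors, so it orders regions within a list and is not compared between lists. The second peak, 177 bp upstream of cdc-48.1, which encodes an AAA ATPase that extracts ubiquitylated proteins, had a pooled signal of 688 and ranked 3 in replicate 1 and 2 in replicate 2. The third, 218 bp upstream of ufbp-1, a factor for attaching the ubiquitin-like protein UFM1, had 613, with ranks of 5 and 3. It stood apart from the other 6 by its base composition, with a GC content of 35.6% in the 101 bases around the summit against 40.6 to 57.4%, and it held none of the 4 words.

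Signals then fell step by step. The peak 50 bp upstream of tasp-1, which encodes a threonine aspartase, had 572, that 435 bp upstream of rpl-35 had 553, that 240 bp upstream of rps-1, for a protein of the small ribosomal subunit, had 378, and that 283 bp upstream of cox-5A, for a subunit of cytochrome c oxidase, had 377. Of the 7 highest peaks, 6 lay on chromosome III. Next came wwp-1, for a ubiquitin ligase, at 333, iff-2, for the translation factor eIF5A, at 330, mstr-1 at 314, his-37, for histone H4, at 301, and F36A2.7 at 285. The 25 highest reached down to 210, at ints-4, for a subunit of the Integrator complex. All 25 ranked within the first 154 regions of replicate 1 and the first 112 of replicate 2, out of 30000 listed regions in each.

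Most peaks were far lower. The lowest of the 550 had a pooled signal of 60.2, the median was 83.5 and the quartiles were 69.3 and 117, against a median of 83.0 over all 1794 peaks. A signal above 100 was found at 190, above 200 at 29 and above 500 at 5. The lowest were at ccch-3 (60.3), panl-3 (60.2) and Y73C8B.2 (60.2), and the highest region just below the authors' threshold had 60.1. At the edge of the position rule, the summits nearest to the limit from inside were at C25H3.10 and zfp-1 (494 bp each) and ZC443.3 (492 bp), with signals of 73.5, 63.9 and 94.3. Just outside were lin-56 and rps-24 (502 bp each) and twk-5 (503 bp), with 91.2, 95.2 and 90.2. The gene rps-24 was therefore on both sides of the limit, since a separate peak of signal 83.3 lay 294 bp upstream of one of its start sites. Neither ztf-4 itself nor unc-119 had a peak under the rule. For ztf-4 no region of the pooled list met the position rule at all, while for unc-119 1 region did.

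Widths were uneven along this order. Of the 550 peaks, 508 had the same width of 364 bp, with a median signal of 81.5, and the other 42 were from 92 to 671 bp wide, with a median of 216. Of the 25 highest, 22 had such another width. The labels and files do not state how widths were set.

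The rule fixes how far a summit can lie from a start site, but not on which side. Of the 550 summits, 474 (86.2%, 95% Wilson interval 83.0 to 88.8%) lay upstream. They were compared with 2855 low-signal regions, which met the same position rule among the 15000 lowest regions of the pooled list and overlapped no peak. Of these, 1558 (54.6%) lay upstream, and the odds ratio was 5.19 (95% interval 4.03 to 6.69; two-sided Fisher's exact p = 1.16e-48). Regions near each other are not independent, so p-values over regions are too small to an unknown degree. Against the 463 regions that were ranked directly below the peaks and met the same rule, of which 341 (73.7%) lay upstream, the odds ratio was 2.23 (exact p = 6.99e-07).

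The summits had a median position of 179 bp upstream, with quartiles at 300 and 68 bp upstream, while the low-signal regions were spread almost evenly over both sides with a median of 41 bp upstream. The fullest bin of 100 bp was that from 200 to 100 bp upstream, with 132 peaks (24.0%), followed by that from 300 to 200 bp with 114 (20.7%). The first 100 bp downstream held 31 (5.64%), and no later bin held more than 13. The 474 upstream peaks had a median signal of 84.2 and the 76 downstream peaks of 80.7.

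**Figure D1:**
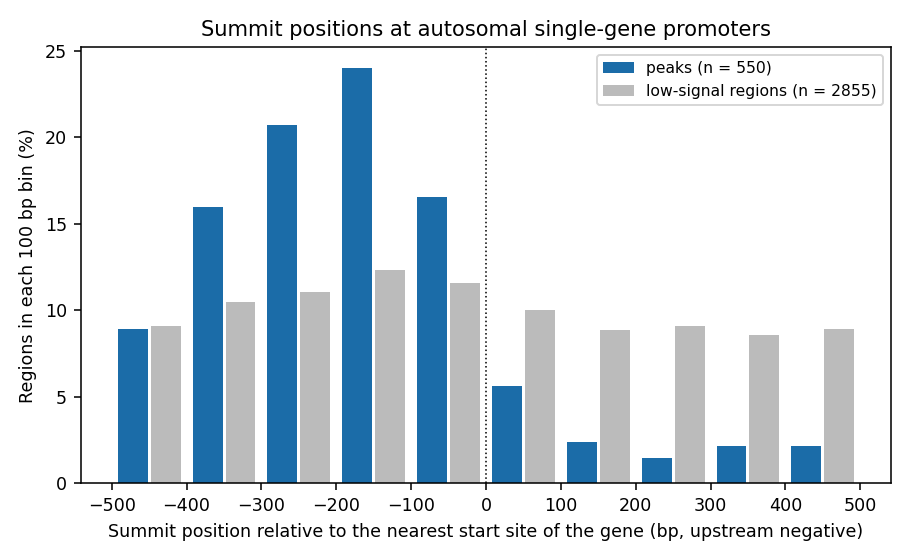
Positions of summits relative to the nearest start site of the gene, in bins of 100 bp, as a percentage of the 550 peaks and of the 2855 low-signal regions. The peaks rise to 24.0% in the bin from 200 to 100 bp upstream and drop to 5.64% in the first bin downstream, whereas the low-signal regions stay between 8.58 and 12.3% in every bin.

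The downstream peaks included 3 of the 25 highest. That at tent-5, which encodes a terminal nucleotidyltransferase (signal 262), lay 134 bp downstream of a start site inside the gene. The others lay 26 bp into cox-5B, for another subunit of cytochrome c oxidase (244), and 37 bp into ints-4 (210). All 3 were in an untranslated exon. Over all 550, 69.5% of summits lay outside annotated protein-coding genes, 19.3% in their introns, 8% in untranslated exons and 3.27% in coding exons. For the low-signal regions these shares were 34.0, 36.3, 9.63 and 20.1%.

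The gene with the most peaks was tent-5, with 5 of them at different start sites on chromosome I, and pooled signals of 262, 109, 103, 86.8 and 75.4. In replicate 1 its highest peak had 140 and in replicate 2 it had 127. Chosen after the values were seen, jun-1, for an AP-1 factor, had 4 peaks (194, 80.5, 69.1 and 60.3), and mstr-1 and drap-1 had 3 each. A further 17 genes had 2 peaks and 501 genes had 1. Of the 550 peaks, 18 overlapped another of them, and 1 region, at kin-14, was listed with 2 different summits.

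Surroundings of the genes also differed from those of the low-signal regions, and these values were not tested. For upstream peaks, the nearest protein-coding gene lying wholly upstream of the start site was considered. It was on the opposite strand at 43.9%, against 36.3% of upstream low-signal regions. Genes that overlap the start site were passed over, so it was not always the next gene. The gap from the start site to that gene had a median of 1255 bp, against 2104.5 bp. A start site of another protein-coding gene lay from 501 to 1000 bp away at 20.2% of peaks and 12.2% of low-signal regions, so a wider rule would assign these peaks to more than 1 gene. Start sites of small nucleolar RNA (snoRNA) genes, whose products guide the modification of ribosomal RNA, lay within 500 bp of 20 peaks (3.64%), the highest at cmtr-1 with a signal of 215, against 0.525% of low-signal regions. The share was 2.56% at peaks near 2 or more genes and 5.24% at autosomal peaks away from protein-coding start sites. At single genes on X it was 0.893% (1 peak). For piRNA genes the order was the opposite, with 7 peaks (1.27%) against 6.27%. The other peaks were also below the low-signal regions, with 2.56% near 2 or more genes, 3.97% away from start sites and 0.893% at single genes on X.

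Peaks made up 8.48% of the 6484 regions of the pooled list that met the position rule on these chromosomes. By chromosome the share was 9.72 to 10.3% on I (125 peaks), II (115) and III (122), and 6.51 to 6.57% on IV (90) and V (98).

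The replicates were read through their own lists. A peak counted as in the top of a replicate when it overlapped one of its 1794 regions of highest signal. Of the 550 peaks, 354 (64.4%) were in the top of both, 68 in that of replicate 1 only, 108 in that of replicate 2 only and 20 in neither. A region of any rank was found for 546 peaks in replicate 1 and for 549 in replicate 2. Across the 545 matched in both, the correlation of signals was 0.539 by Spearman's rho and 0.876 by Pearson's r. These values describe peaks that were selected on pooled signal, some of which overlap the same replicate region.

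The share in the top of both replicates follows in part from how the peaks were selected, by IDR and on pooled signal, and is given as a description. All of the 110 peaks of highest signal, from 129 upwards, were in the top of both replicates, against 15 (13.6%) of the 110 of lowest signal. The highest peak in the top of only 1 replicate was that at kel-3, for a kelch-repeat protein, with a pooled signal of 118. Its signal was 23.0 in replicate 1, at rank 3654, and 103 in replicate 2, at rank 138. At nhr-49, for a nuclear hormone receptor with a known role in fat metabolism, the values were 16.9 (rank 8128) and 101 (rank 148), and at R13A5.7 they were 15.2 (rank 10554) and 84.5 (rank 228). All 3 were high in replicate 2 and low in replicate 1.

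**Figure D2:**
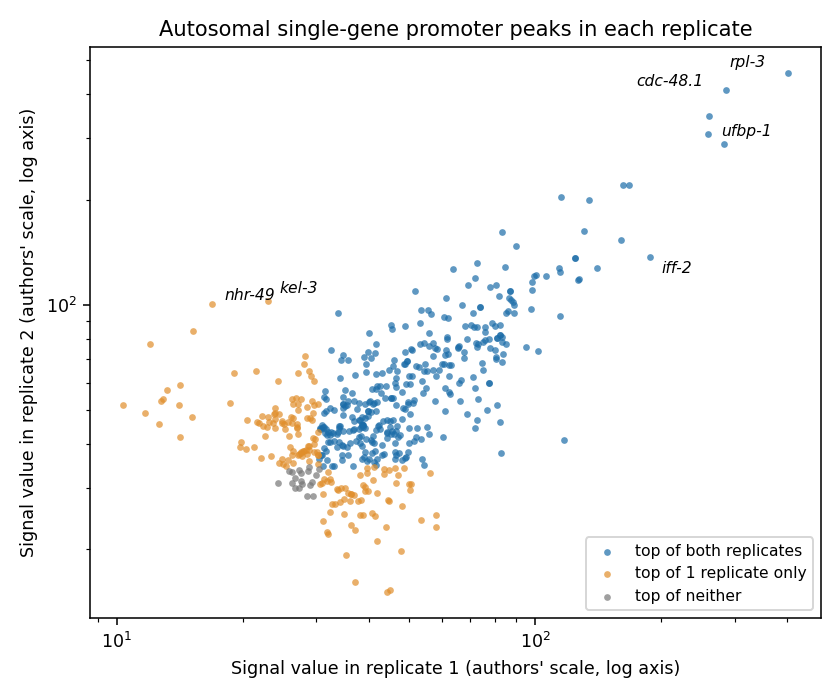
Signal values of the 545 peaks matched in both replicates, each point 1 peak, on log axes in the authors' scale. The highest peaks, such as rpl-3 at 401 and 459, lie together at the upper right, and kel-3 and nhr-49 stand out to the left with low values in replicate 1 only.

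Genes were grouped by symbol into 26 lists of functions. Of the 4765 autosomal protein-coding genes that had any region of the pooled list under the position rule, 522 had a peak, which is 11%. Counts of each list are given against that share and were not tested.

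Genes for ribosomal proteins had the highest shares. Of 48 annotated genes for proteins of the large subunit, 21 had a region under the rule and 13 of those (61.9%, 95% Wilson interval 40.9 to 79.2%) had a peak. After rpl-3 and rpl-35 the highest were rpl-24.2 (signal 159) and rpl-23 (151), and the lowest was rpl-7 (65.4). For the small subunit it was 6 of 11 (54.5%, 28 to 78.7%) among 31 annotated genes. There rps-1 and rps-28 (210) were the highest, and the other 4, among them rps-24 (83.3) and rps-17 (77.4), lay between 72.3 and 83.3. All 19 peaks at genes for ribosomal proteins lay upstream, from 155 bp at rpl-24.2 to 442 bp at rps-28. A further 16 genes of the large subunit and 12 of the small subunit had a peak only where start sites of 2 or more genes lay within 500 bp. The counts moved with the choices made. With a 250 bp window they were 7 of 14 and 2 of 2 genes, with a 1000 bp window 8 of 16 and 4 of 13, and with the top of replicate 2 alone the small subunit had 4 of 13.

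Other parts of protein synthesis were less uniform. Of 19 genes for translation factors with a region, 3 had a peak (15.8%), and all 3 were above the median of the 522 genes, at iff-2 (330) and at eif-3.C (203) and eif-3.B (163), which encode subunits of the initiation factor eIF3. Of 14 genes for aminoacyl tRNA synthetases, which charge tRNAs, kars-1 alone had a peak, of signal 60.8, and with the top of replicate 2 alone none of 16 did. Genes of the mitochondrial ribosome and mitochondrial import had 6 of 30 (20%), led by mrpl-28 (146) and mrpl-55 (119.3), and including tomm-20 (92.3), for a receptor of the outer membrane.

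In the respiratory chain 7 of 21 genes had a peak (33.3%, 17.2 to 54.6%). Those at cox-5A and cox-5B were followed by cyc-1 (162), for cytochrome c1, and cyc-2.1 (112), for cytochrome c. The list of the ubiquitin and UFM1 pathways with CDC-48 had 11 of 25 (44.0%, 26.7 to 62.9%). Besides cdc-48.1 and ufbp-1 it held ubc-25 and ubc-3 (134 each), which encode ubiquitin-conjugating enzymes. Of the proteasome itself, 2 of 11 genes had a peak, rpn-11 (86.9) and rpt-1 (63.6).

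Among chaperones, 6 of 27 genes had a peak (22.2%), the highest being hsp-1 (204), which encodes a constitutive HSP70, and dnj-9 (172) and dnj-13 (155), for J-domain partners of HSP70. Nuclear transport had 5 of 12 (41.7%, 19.3 to 68.0%), with imb-3 (152) and ima-2 (91.4) for importins and npp-8 (128) and npp-13 (86.8) for nuclear pore proteins. With the top of replicate 2 alone the count for nuclear transport was 4 of 17 (23.5%). Membrane traffic had 10 of 48 (20.8%), led by sec-61.G (238), for a subunit of the channel into the endoplasmic reticulum, and vps-60 (161). Autophagy had 4 of 13 (30.8%), with lgg-2 (239), for a protein of the Atg8 family, far above epg-8 (90.2), atg-9 (80.7) and atg-7 (77.3).

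Chromatin had 6 of 31 (19.4%), with his-37 (301) and set-4 (160), for a histone methyltransferase, as the highest, but with the top of replicate 2 alone it had 3 of 30 (10%), against 10.4% of all genes there. Splicing had 4 of 15 (26.7%), with snr-4 (138), for an Sm protein, and prp-8 (121), and with the top of replicate 1 alone it had 3 of 19. Cell cycle and DNA replication had 4 of 18 (22.2%), with pcn-1 (121), for the replication clamp PCNA, and cdc-14 (101). With a 1000 bp window that list had 1 of 20 (5%), against 9.83% of all genes there. The transcription machinery had 3 of 28 (10.7%), with rpb-11 (112), for a subunit of RNA polymerase II, as the highest. Of the ztf genes, which share the name of ZTF-4, ztf-7 (164) and ztf-8 (71.98) were 2 of 8. The vacuolar ATPase had 2 of 11, with vha-9 (94.5) and vha-14 (67.1), and with replicate 1 alone 1 of 12.

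Several lists lay below the background share of 11%. Among them, only for chemosensory receptors and for neuropeptides and insulins did the 95% Wilson interval exclude it. Nuclear hormone receptors had 8 of 81 (9.88%, 5.09 to 18.3%), and with the top of replicate 1 alone 3 of 82 (3.66%). Chemosensory receptors had 3 of 150 (2.00%, 0.682 to 5.71%), namely srh-2 (157), srbc-58 (77.3) and srh-269 (65.5). Cuticle collagens and other genes with cuticle phenotypes had 1 of 33, at dpy-11 (95.04), which encodes a thioredoxin-like protein and not a collagen. F-box genes had 1 of 20, at fbxb-72 (154), and the muscle list had 1 of 10, at act-2 (82.5). The homeobox ceh genes (0 of 11), neuropeptides and insulins (0 of 35, upper Wilson bound 9.89%) and cilia (0 of 11) had none. With 1 replicate alone, cilia had 1 of 16 (replicate 1) and neuropeptides and insulins had 1 of 33 (replicate 2). With a 1000 bp window the ceh genes had 2 of 17 (11.8%), against 9.83% of all genes there. In all, 109 of the 522 genes were in a list and 413 in none, and 27.6% of the 522 had only a sequence name, against 39.0% of the genes with a region.

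**Figure D3:**
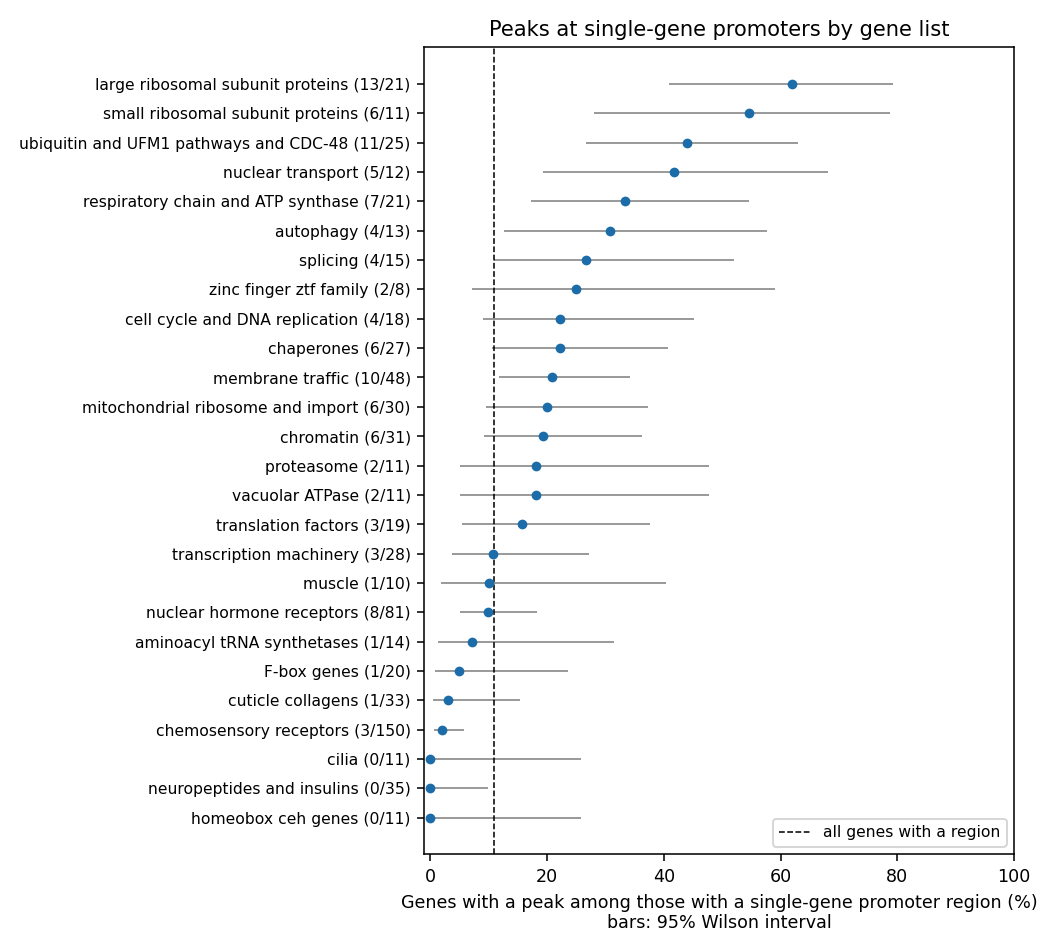
Share of genes with a peak among those with a region under the position rule, for each of 26 lists, with 95% Wilson intervals. The dashed line marks the 11% of all such genes, and the lists of ribosomal proteins lie farthest to the right of it at 61.9 and 54.5%.

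Peaks near 1 gene were compared with the other autosomal peaks and with the X chromosome. Of the other autosomal peaks, 195 lay within 500 bp of start sites of 2 or more protein-coding genes and 706 within 500 bp of none. On X, 112 peaks met the single-gene rule. Of 16 comparisons by Fisher's exact test with Benjamini-Hochberg adjustment, 3 passed an adjusted p of 0.05.

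The repeat GAGAGA lay within 50 bp of the summit at 121 of the 550 peaks (22%), against 33.7% of peaks away from start sites, an odds ratio of 0.555 (0.430 to 0.716; adjusted exact p = 8.88e-05). It was also less frequent than at the X peaks (37.5%; odds ratio 0.470, 0.305 to 0.724; adjusted exact p = 0.00561). Within strata of GC content, these odds ratios were 0.523 and 0.525. The difference from X did not pass with a 250 bp window (odds ratio 0.612, adjusted exact p = 0.414), a 1000 bp window (0.698, 0.167) or the 897 peaks of highest signal (0.519, 0.177). A start site of a noncoding RNA gene lay within 500 bp of 17.5% of peaks, against 28% of peaks away from protein-coding start sites (odds ratio 0.543, 0.412 to 0.714; adjusted exact p = 9.52e-05), but with a 1000 bp window the odds ratio was 0.767 (adjusted exact p = 0.167). Peaks near 2 or more genes did not differ in the GA repeat (19.5%; odds ratio 1.17, 0.775 to 1.75; adjusted exact p = 0.589). Noncoding start sites were at 20% of those peaks (0.846; adjusted exact p = 0.589) and at 20.5% of the X peaks (0.818; adjusted exact p = 0.589).

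No other comparison passed. Against peaks at 2 or more genes, the share with a signal above the median of all peaks was 50.9 against 57.9% (odds ratio 0.753, 0.541 to 1.05; adjusted exact p = 0.255), and the share in the top of both replicates 64.4 against 70.8% (0.746, 0.523 to 1.06; adjusted exact p = 0.259). The shares of GC content above the median were 49.8 against 56.9% (0.751, 0.541 to 1.04; adjusted exact p = 0.255). This last difference passed with the top regions of either replicate alone as peaks, with odds ratios of 0.597 (replicate 1) and 0.583 (replicate 2). With replicate 1 alone the share in the top of both also passed against peaks at 2 or more genes (0.513) and against peaks away from start sites (1.499). There it is only the share in the top of replicate 2, since the peaks were taken from the top of replicate 1. GC content against peaks away from start sites also passed with replicate 1 alone (1.41). With replicate 2 alone GC content passed against X (0.507). On X, 87.5% of summits lay upstream, against 86.2% here (odds ratio 0.891, 0.484 to 1.64; adjusted exact p = 0.880), an interval that leaves room for a moderate difference either way.

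**Figure D4:**
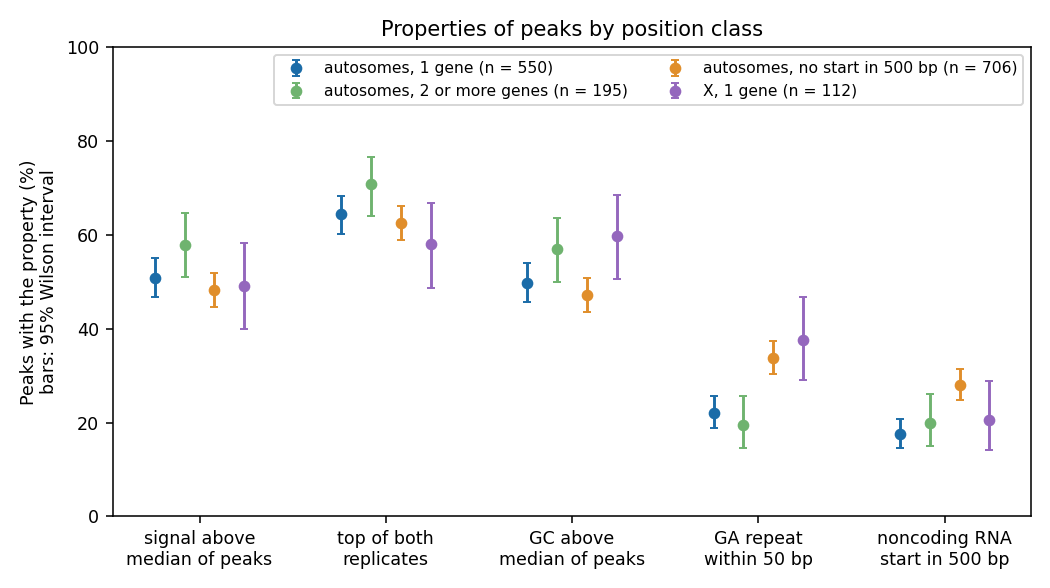
Share of peaks with each of 5 properties in 4 position classes, with 95% Wilson intervals. The GA repeat and noncoding start sites stand at 22 and 17.5% in single-gene autosomal peaks and at 33.7 and 28% in autosomal peaks with no protein-coding start site in 500 bp. They stand at 19.5 and 20% in autosomal peaks near 2 or more genes, and at 37.5 and 20.5% in single-gene X peaks.

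The sequences at the 550 summits were compared with those of the low-signal regions, word by word, over all 2080 words of 6 bases joined with their reverse complements. By Fisher's exact test, 467 words (22.5%) were more frequent and 292 (14.0%) less frequent at peaks, at an adjusted p of 0.05. Base composition differed along with them, since the median GC content within 50 bp was 45.5% at peaks and 32.7% at low-signal regions. Of the 467 words, 286 held a CG step, as did 604 of the 2080, and 35 of the 36 words without C or G were less frequent. When regions were compared within strata of GC content, 106 words were more frequent and 54 less frequent. Against the regions ranked directly below the peaks, whose median GC content was 39.6%, the counts were 30 and 17.

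The leading word, GCGCAC, was present at 77 peaks (14.0%) and at 0.981% of low-signal regions, an odds ratio of 16.4 (10.5 to 25.6; adjusted exact p = 7.01e-37). Within GC strata the odds ratio was 7.41 (adjusted Mantel-Haenszel p = 1.48e-13), and against the regions directly below the peaks, of which 6.48% held it, it was 2.35 (adjusted exact p = 0.0116). The second, GACGCA, was present at 18.7%, against 2.73% (odds ratio 8.20, 6.01 to 11.2; adjusted exact p = 1.94e-35), with 3.54 within GC strata and 2.65 against the regions directly below, of which 7.99% held it. Both occur in the windows shown for rpl-3 and eelo-2. The repeat GAGAGA was present at 22% of peaks against 6.83% of low-signal regions (odds ratio 3.85; adjusted exact p = 7.77e-22), but at 19.2% of the regions directly below (1.19; adjusted exact p = 0.777). A match is a description of the letters and does not show that ZTF-4 binds there. None of these 3 words was present at 57.3% of peaks and at 90.3% of low-signal regions.

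In a comparison chosen after the data were seen, the words at the 550 summits were set against the 706 autosomal peaks away from start sites. Both sets had a median GC content of 45.5%. Here 62 of the 2080 words (2.98%) were more frequent and 8 (0.385%) less frequent near single genes. The first was CGCGCA, at 13.6 against 3.68% (odds ratio 4.13, 2.60 to 6.55; adjusted exact p = 2.45e-07), and the leading word above, GCGCAC, was at 14.0 against 4.82% (3.22, 2.11 to 4.90; adjusted exact p = 1.96e-05). That word stood at 17.9% both at peaks near 2 or more genes and at single-gene peaks on X, and these shares were not tested. The word ACTCCG was at 5.27 against 0.708% (7.80, 3.00 to 20.3; adjusted exact p = 0.000200). With the top of replicate 1 alone the counts were 32 and 2, and with that of replicate 2 alone 70 and 13. Less frequent were AAGAGA, at 17.8 against 29.3% (0.523; adjusted exact p = 0.000483), and the repeat GAGAGA, which did not pass here with replicate 1 alone (0.656; adjusted exact p = 0.0665).

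Signal and words went together unevenly. In 5 groups of 110 peaks, from highest to lowest signal, GCGCAC was present at 24, 15, 25, 7 and 6 of 110 peaks, and GACGCA at 31, 26, 16, 17 and 13. The GA repeat was present at 29.1% of the highest group and at 19.1 to 20.9% of the others. The word AGTGTA was present at 6 of the 7 highest peaks, those shown above except ufbp-1, at 8 of the 25 highest and at 31 of all 550 (5.64%). It was chosen for this pattern, which is therefore a description. Without the 7 highest peaks it was present at 25 of 543 (4.60%), against 3.26% of low-signal regions and 5.38% of peaks away from start sites, and no test is given for a word picked from these peaks.

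**Figure D5:**
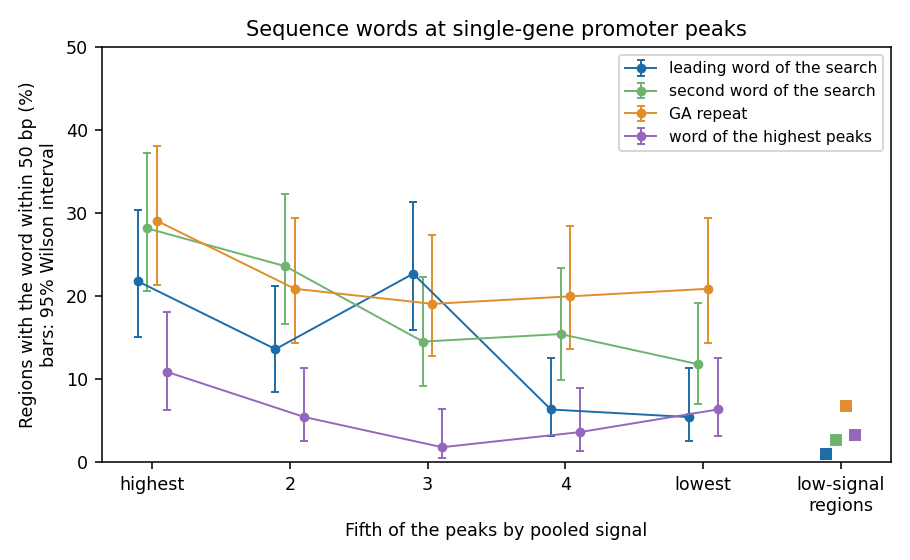
Share of peaks with each of 4 words within 50 bp of the summit, in 5 groups of 110 peaks ordered by pooled signal, with 95% Wilson intervals, and the share among low-signal regions as squares. The leading and second words of the search, GCGCAC and then GACGCA, fall from 21.8 and 28.2% in the highest group to 5.45 and 11.8% in the lowest, while the GA repeat stays between 19.1 and 20.9% below the highest group.

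In the windows of rpl-3, tasp-1 and rps-1, the word AGTGTA and the word ACTCCG joined into TACACTCCG, read on either strand. The 9 bases were put together after the sequences had been seen, from a word picked at the highest peaks and a word picked as rare at peaks away from start sites, so their counts are a description. These were the peaks of rank 1, 4 and 6 by signal, and no other of the 550 held them within 50 bp of the summit. They were found at 1 of the 195 peaks near 2 or more genes and at none of the 2855 low-signal regions, the 706 peaks away from start sites or the 112 X peaks. At the 19 peaks of genes for ribosomal proteins, GCGCAC was present at 7, as was GACGCA, with the GA repeat at 2 and AGTGTA at 3.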

How the data were processed

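The authors deposited lists of regions from ChIP-seq in narrowPeak format on ce11, 1 for each replicate, 1 for the pooled replicates (30000 regions each) and 1 past an IDR threshold. The signal of a region, in the seventh column of the deposited lists, is the authors' own. Per the listing deposited with each sample, these lists were made from alignments of each replicate or of both, and from a control that was not used here. No aligner, peak caller, IDR threshold or control strain was given in the sources used here. Depth is unknown, since no read counts were in these lists.

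Summits were assigned to start sites of all transcripts in Ensembl release 115 (WBcel235), and the RefSeq genome gave sequences. Overlap meant at least 1 bp. Fisher's exact test, two-sided, was used for shares, and p-values were adjusted by the Benjamini-Hochberg method over the 16 class comparisons and over the 2080 words. GC strata were 5 percentage points wide and used a Mantel-Haenszel test. Intervals of odds ratios (95%) were taken on the log scale, after adding 0.5 if any cell held 0. The word tests were tried on simulated data in which words and regions were independent and strata were assigned at random. That trial could not check the effect of GC content or of regions that lie near each other. Python 3.11.15, numpy 2.4.6, scipy 1.17.1 and matplotlib 3.10.9 were used.

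The peaks and the gene lists were chosen with earlier results of these data known. Genes named are the 25 highest peaks in the top of both replicates, the 4 highest of each list, the gene with the most peaks, those at the edges of the rule, ztf-4 and unc-119, and others where said. The 2 samples are biological replicates of 1 group, so no conditions were compared.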

Additional observations from a re-analysis of the deposited data

How the results depend on the processing

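The settings tried were the top 1794 regions of each replicate alone as peaks, windows of 250 and 1000 bp, the 897 peaks of highest signal, start sites of protein_coding transcripts only or the outermost start site of each gene, regions ranked directly below the peaks in place of the low-signal regions, a flank of 100 bp, and GC strata. A further setting, which was not planned, kept only the highest region of each gene. With 897 peaks, 280 met the rule in place of 550, by construction. The excess of upstream summits kept its direction and passed under each of these settings except the flank and the GC strata, under which it was not run, with odds ratios of 3.86 and 4.72 with 1 replicate alone and from 2.23 to 5.96 over the others.

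Of the words at peaks against low-signal regions, 30 were more and 17 less frequent against the regions directly below the peaks, and 106 and 54 within GC strata, in place of 467 and 292. The cause was not tested.

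In the class comparisons, the share in the top of both replicates passed with replicate 1 alone, not with replicate 2 alone. That held against peaks at 2 or more genes (odds ratios 0.513 and 0.783) and against peaks away from start sites (1.499 and 1.12). By construction, with 1 replicate alone this share only measured overlap with the top of the other replicate. GC content above the median against peaks away also passed with replicate 1 alone and not with replicate 2 alone (1.41 and 1.17). GC content above the median against X passed with replicate 2 alone (0.507; replicate 1, 0.677) and with 897 peaks (0.416), and against peaks at 2 or more genes with either replicate (0.597 and 0.583). The GA repeat against X was at 0.519 with 897 peaks, 0.612 with 250 bp and 0.698 with 1000 bp, and noncoding start sites against peaks away at 0.767 with 1000 bp, none of which passed. The cause was not tested.

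In the added comparison with peaks away from start sites, the words more frequent numbered 27 with 897 peaks and 19 with 1000 bp, and the words less frequent 5 with 250 bp and 2 with 1000 bp. With 1 replicate alone they were 32 and 2 (replicate 1) and 70 and 13 (replicate 2). The leading word GCGCAC passed there under each of these. The GA repeat did not with replicate 1 alone (adjusted exact p = 0.0665), nor did GACGCA under any of them, whose adjusted exact p was 0.0472 with both replicates. The word AGTGTA was picked from these peaks, so no test of it is given under these settings either. Of 108 gene list counts recomputed, 21 moved by over 1.5 times.

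No paired analysis was possible because the 2 samples are replicates of 1 group. Limits are the unknown depth, the unknown scale of the signal, the single group, and regions and genes that are not independent of each other.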
